A study of Homo sapiens with 6 samples.

Results

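The 31 genes described here encode enzymes, regulators and a carrier of cholesterol and fatty acid synthesis, and they were examined in HT1080 cells, a human fibrosarcoma line, with and without interferon β (IFNβ). They were chosen as a list of known SREBP targets and SREBP pathway genes and were matched to the deposited table of 62710 Ensembl genes by gene ID, and all 31 were found. Of these, 7 genes act from acetyl-CoA to farnesyl diphosphate, 11 act from farnesyl diphosphate through squalene to cholesterol, and 7 make, elongate or desaturate fatty acids. Another 5 genes regulate the pathway, and 1 encodes a sterol carrier.

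RNA was sequenced from 6 HT1080 libraries, 3 of untreated cells and 3 of cells given human IFNβ at 20 ng/mL for 24 h. The labels name human IFNβ, whereas the study's methods name mouse IFNβ for the sequenced cells. Both groups grew in high-glucose DMEM with 10% fetal bovine serum, and the labels name no other treatment or genetic change in either. The study asked how IFNβ alters ferroptosis, an iron-dependent death by lipid peroxidation. The study's methods state independent biological replicates for its in vitro experiments in general, but the labels do not say whether these libraries came from separate cultures, so p-values measure the spread between these libraries, which may be technical. HT1080 is a single cultured line.

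Cells make cholesterol from acetyl-CoA through mevalonate, farnesyl diphosphate and squalene, and they make fatty acids from the same precursor through malonyl-CoA. The membrane-bound transcription factors SREBP-1 and SREBP-2 drive both routes: when endoplasmic reticulum sterol is low, SCAP escorts them to the Golgi, where proteases release the part that enters the nucleus, and INSIG proteins hold SCAP back when sterol is high. Sterol synthesis genes are known mostly as SREBP-2 targets, and fatty acid genes mostly as SREBP-1 targets.

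Promoter sequence was read for the members because shared control through the promoter is the textbook basis of this gene group. RefSeq promoters (GRCh38.p14, from 250 bases before the start to 50 bases after it) were held for 27 of the 31 members, with ACAT2, FDFT1, SQLE and FASN having no entry. The 250 bases upstream of the start are shown for SREBF2, the 1 member whose window held the sterol response element letters TCACNCCAC, and for STARD4 and PMVK, which were chosen after their values were seen as the members with the largest rise and the largest fall. Sequences are 5′ to 3′ on the strand of the gene, and capitals mark TCACNCCAC or CCAAT on either strand, a reverse-strand CCAAT reading ATTGG. SREBF2 lay at chr22:41832855-41833104 on the plus strand, STARD4 at chr5:111512536-111512785 on the minus strand, and PMVK at chr1:154936720-154936969 on the minus strand.
SREBF2: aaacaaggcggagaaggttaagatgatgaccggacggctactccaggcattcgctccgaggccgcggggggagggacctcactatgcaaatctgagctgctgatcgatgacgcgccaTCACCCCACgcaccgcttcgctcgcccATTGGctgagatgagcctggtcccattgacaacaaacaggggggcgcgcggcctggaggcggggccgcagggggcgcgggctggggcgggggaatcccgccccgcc
STARD4: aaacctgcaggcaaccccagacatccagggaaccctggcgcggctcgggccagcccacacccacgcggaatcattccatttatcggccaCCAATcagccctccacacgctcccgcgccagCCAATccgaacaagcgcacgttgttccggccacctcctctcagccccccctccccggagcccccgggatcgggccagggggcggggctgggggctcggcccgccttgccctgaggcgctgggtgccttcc
PMVK: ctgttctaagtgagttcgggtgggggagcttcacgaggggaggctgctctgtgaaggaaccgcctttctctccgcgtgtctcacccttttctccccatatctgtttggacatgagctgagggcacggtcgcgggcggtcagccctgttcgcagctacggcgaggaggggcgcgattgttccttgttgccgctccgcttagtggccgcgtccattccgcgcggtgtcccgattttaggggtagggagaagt

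In SREBF2 the sterol letters began 133 bases upstream of the start and were followed by 1 CCAAT on the reverse strand. STARD4 held CCAAT at 2 places and no sterol letters, and PMVK held neither. Over the 300-base windows, searched on both strands, TCACNCCAC was found in 1 of 27 members (3.70%) against 1.15% of 27305 promoters. CCAAT, bound by NF-Y, was found in 17 of 27 members (63.0%) against 35.7% of all promoters and 36.7% of 11537 promoters of genes tested here. GGGCGG, the GC box of Sp1, was found in 25 of 27 members (92.6%) against 44.6% and 67.4%. The core of the interferon-stimulated response element, GAAA followed by any 2 bases and GAAA again, was in 0 of 27 members and in 3.65% of all promoters. CCAAT was present in 5 of 7 members that rose, 3 of 6 that fell and 9 of 18 that did neither. Those 18 include ACAT2, FDFT1, SQLE and FASN, which had no window to search. These are letter matches within the window, and they do not describe binding.

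The libraries held 22848104 to 32915500 fragments as recovered from the table, and the 31 members took 0.609% to 0.645% of each. A member was read by 107 to 33043 fragments per library, and its coefficient of variation between libraries had a median of 2.39% in untreated and 2.87% in IFNβ-treated cells. The interferon response marked the groups as labelled, since IFIT1, a known interferon-stimulated gene, averaged 0.916 FPKM (fragments per kilobase of exon, scaled to the fragments of the library) in untreated cells and 413 FPKM in treated cells. Mesenchymal markers summed to 924 to 976 FPKM in untreated and 958 to 993 FPKM in treated libraries, whereas epithelial, leukocyte, endothelial, adipocyte and hepatocyte markers summed to at most 0.654, 0.231, 0.441, 0.0514 and 0.134 FPKM. Of 10 proliferation genes, 7 fell and 1 rose by the test described below, against 17.5% and 15.2% of all genes tested, with a median log2 fold change of -0.23, and the part of cell growth in the values below was not tested. FPKM are scaled to the total of each library, so less of an RNA per cell and fewer cells that carry it cannot be told apart.

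IFNβ moved single genes of lipid synthesis in both directions and by small amounts. By limma on log2(FPKM + 0.1), with adjusted p under 0.05 over 20716 genes, 7 of the 31 members rose and 6 fell, while 18 passed in neither direction. The 13 that passed are 41.9% of the members, against 32.7% of all genes tested (15.2% higher and 17.5% lower). The median log2 fold change of the members was -0.00097 and that of all genes tested was 0.00017. By limma 0 members passed with an absolute log2 fold change of 1, against 4.22% of all genes (3.49% higher and 0.739% lower). With 0.5 in place of 1, 1 member, STARD4, passed, against 10.1% of all genes (6.81% higher and 3.27% lower). At an unadjusted p under 0.05, 16 members passed with no fold requirement, against 41.6% of all genes tested. For 18 members the groups did not overlap, 9 with every treated library higher (22.3% of all genes) and 9 with every treated library lower (24.3%), and 46.6% of all genes tested were separated in either way.

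**Figure D1:**
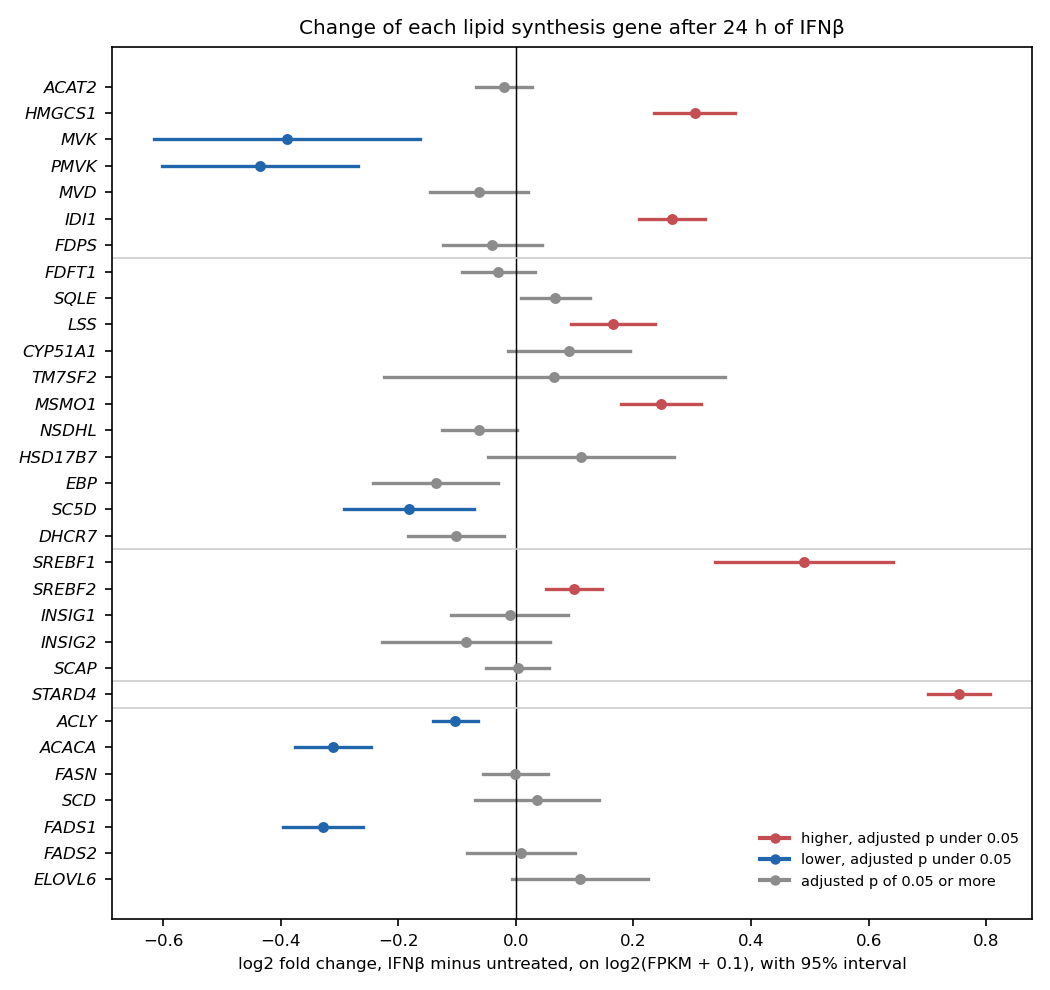
Log2 fold change (IFNβ minus untreated, on log2(FPKM + 0.1)) of the 31 lipid synthesis genes in pathway order, as points with 95% limma intervals, with lines between roles and colours for adjusted p. STARD4 stands at 0.75 on the right, PMVK at -0.44 on the left, and most genes lie close to 0.

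The largest rise was in STARD4, a soluble carrier that moves cholesterol between membranes and is a known SREBP-2 target. Its level was 14.9, 15.3 and 14.8 FPKM in the untreated libraries and 25.4, 25.5 and 25.2 FPKM in the treated libraries. The groups were far apart, with little spread inside either. The fold change was 1.69 (log2 0.75 ± 0.02 SE, limma adjusted p = 2.5e-06, n = 3 per group), and every alternative fit kept the call, with log2 values from 0.72 to 0.77. Its exons overlap those of the antisense gene STARD4-AS1 for 124 bases, and that gene, at 0.491 and 0.774 FPKM, also rose (log2 0.57, adjusted p = 0.029). Whether fragments were counted by strand is not given in the sources used here, and the part of shared fragments in the value of STARD4 was not tested.

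The genes at the start of the mevalonate route did not move as a block. Of the 7 that lead to farnesyl diphosphate, HMGCS1 and IDI1 rose, MVK and PMVK fell, and ACAT2, MVD and FDPS passed in neither direction. The 4 that passed are 57.1% of the 7, against 32.7% of all genes tested. HMGCS1, which condenses acetoacetyl-CoA with acetyl-CoA to HMG-CoA, was at 50.002, 51.8 and 48.5 FPKM without IFNβ and at 60.7, 62.3 and 62.6 FPKM with it. No treated library came near an untreated one, and the mean was 23.5% higher (log2 0.30 ± 0.03 SE, limma adjusted p = 0.00043). IDI1, the isomerase that converts isopentenyl to dimethylallyl diphosphate, was at 41.1, 42.5 and 40.7 FPKM in untreated and 49.2, 49.9 and 50.4 FPKM in treated libraries. It was 20.2% higher, again with the groups apart (log2 0.27, limma adjusted p = 0.00030).

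The mevalonate kinases that act between those enzymes had lower levels. PMVK, phosphomevalonate kinase, had 14.4, 15.3 and 15.6 FPKM without IFNβ and 10.05, 11.9 and 11.6 FPKM with it, from 297 to 516 fragments per library. Treated replicate 1 was the lowest, but each treated library lay under each untreated one, and the mean fell by 26.1% (log2 -0.44 ± 0.07 SE, limma adjusted p = 0.0038). MVK, mevalonate kinase, had 5.61, 6.31 and 5.29 FPKM in untreated and 4.29, 4.83 and 3.95 FPKM in treated libraries. Its groups were separate but its spread was the larger, at 9.13% and 10.3% of the mean, and it fell by 24.0% (log2 -0.39 ± 0.09 SE, limma adjusted p = 0.021). The call for MVK was lost by limma without IFNβ replicate 1 (log2 -0.38, adjusted p = 0.077), IFNβ replicate 3 (-0.32, 0.067), untreated replicate 1 (-0.40, 0.054) or untreated replicate 2 (-0.32, 0.060). MVK shares 306 exon bases with MMAB, a protein-coding gene on the other strand. MMAB was lower in every treated library and missed the threshold (log2 -0.23, interval -0.42 to -0.05, limma adjusted p = 0.061).

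The other 3 genes of the route had levels that overlapped between groups. ACAT2, the cytosolic thiolase, averaged 58.9 ± 1.16 FPKM (SD, n = 3) untreated and 58.1 ± 0.346 FPKM treated, with a log2 interval from -0.07 to 0.03. Of its 4299 exon bases, genes of the other strand overlap 1458 (SOD2-OT1), 1141 (SOD2) and 397 (TCP1). SOD2 had no value under the gene ID used here. SOD2-OT1 averaged 0.164 and 0.0762 FPKM (limma adjusted p = 0.25), while TCP1 fell from 109.7 to 100.3 FPKM (limma adjusted p = 0.0028). MVD, mevalonate diphosphate decarboxylase, averaged 15.8 and 15.1 FPKM (interval -0.15 to 0.02), and FDPS, farnesyl diphosphate synthase, 29.02 and 28.2 FPKM (interval -0.12 to 0.04). FDPS shares 693 exon bases with RUSC1-AS1, which averaged 2.03 FPKM untreated and rose.

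**Figure D2:**
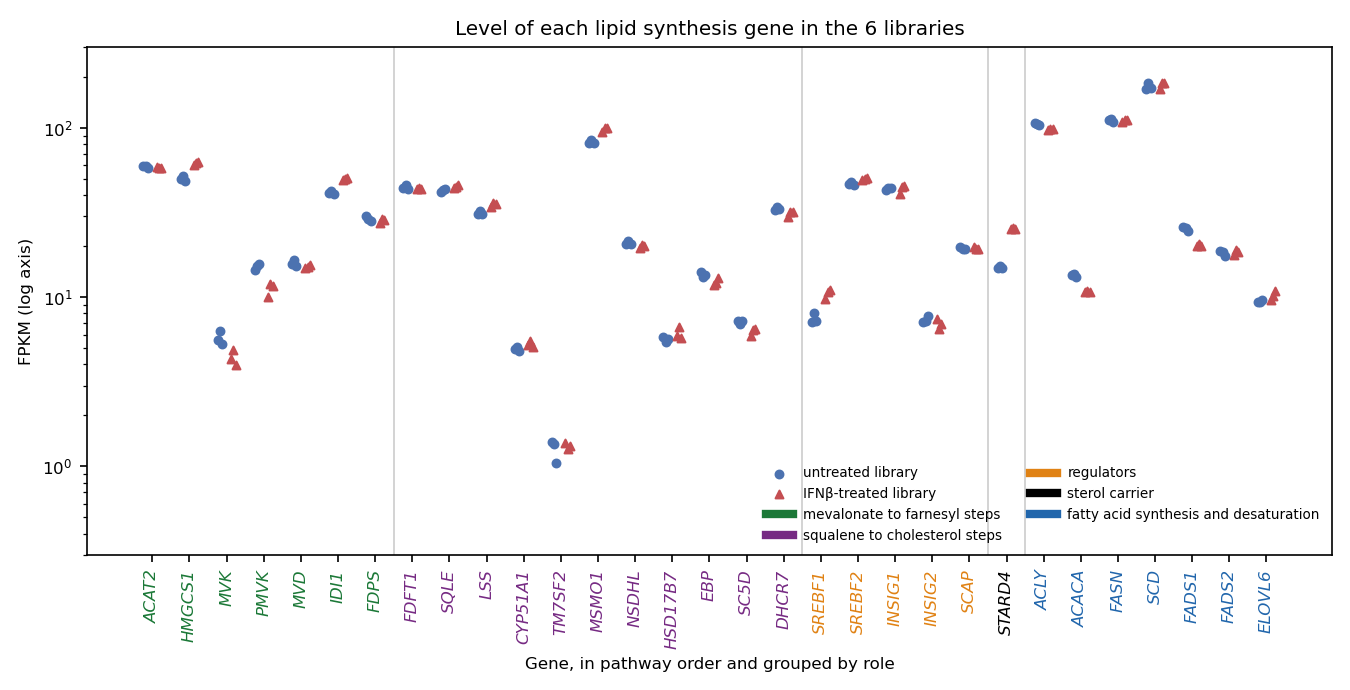
FPKM (log axis) of each of the 31 genes in the 3 untreated (circles) and 3 IFNβ-treated (triangles) libraries, in pathway order and grouped by role. Levels run from 1.26 FPKM for TM7SF2 to 175 FPKM for SCD in untreated cells, and the groups lie close together next to that range.

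From farnesyl diphosphate through squalene to cholesterol, 2 of 11 genes rose and 1 fell, in all 27.3% against 32.7% of all genes tested. MSMO1, the sterol C4-methyl oxidase, was at 81.4, 84.9 and 81.5 FPKM in untreated and 94.8, 99.7 and 99.6 FPKM in treated libraries. The lowest treated library was above the highest untreated one, and the mean was 18.7% higher (log2 0.25 ± 0.03 SE, limma adjusted p = 0.0010). LSS, lanosterol synthase, which closes the sterol rings, was at 30.9, 32.1 and 31.02 FPKM without IFNβ and at 34.0, 36.1 and 35.4 FPKM with it. The groups were apart, with a rise of 12.2% (limma adjusted p = 0.0064). SC5D, the sterol C5-desaturase that acts late in the route, was at 7.21, 6.93 and 7.17 FPKM without IFNβ and at 5.89, 6.39 and 6.49 FPKM with it. It fell by 11.9% (log2 -0.18 ± 0.05 SE, limma adjusted p = 0.024) with separate groups. By limma its call was lost without IFNβ replicate 2 (log2 -0.20, adjusted p = 0.051), untreated replicate 1 (-0.17, 0.072) or untreated replicate 3 (-0.18, 0.076), with the replicate numbers as a block (adjusted p = 0.055) and with no trend in the variance prior (adjusted p = 0.055).

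Of the 8 genes of this stretch that passed in neither direction, 5 had groups that did not overlap. The share was 46.6% over all genes tested, but that base includes genes that passed and so is not a like one. SQLE, squalene epoxidase, was at 41.9, 43.1 and 43.5 FPKM untreated and 44.1, 44.5 and 46.0 FPKM treated (log2 interval 0.01 to 0.13, limma adjusted p = 0.082). EBP, the sterol isomerase, was at 14.01, 13.1 and 13.4 FPKM against 11.8, 12.0 and 13.0 FPKM (interval -0.24 to -0.03, limma adjusted p = 0.059). Without IFNβ replicate 3, the highest treated library, EBP passed the threshold by limma (adjusted p = 0.024).

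DHCR7, which completes cholesterol by reducing 7-dehydrocholesterol, was at 32.8, 34.0 and 33.0 FPKM in untreated and 29.6, 31.8 and 31.7 FPKM in treated libraries (interval -0.18 to -0.02, limma adjusted p = 0.065). DHCR7 passed as lower with the replicate numbers as a block (limma adjusted p = 0.046), with voom (0.0045) and at a mean of at least 1 FPKM (0.042). CYP51A1, lanosterol 14-demethylase, averaged 4.93 and 5.25 FPKM (limma adjusted p = 0.16), and 2844 of its 3584 exon bases are shared with AC000120.2, which is listed at 0 in all libraries. NSDHL, the C4-decarboxylating dehydrogenase, averaged 20.8 and 19.9 FPKM (limma adjusted p = 0.13). In CYP51A1 every treated library was higher, and in NSDHL every treated library was lower.

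FDFT1, squalene synthase, overlapped between groups at 44.6 and 43.6 FPKM (interval -0.09 to 0.03), as did HSD17B7, the 3-ketosteroid reductase of the route, at 5.62 and 6.08 FPKM (interval -0.05 to 0.27). TM7SF2, a sterol C14-reductase, was the member with the lowest level, at 1.26 and 1.32 FPKM from 107 to 145 fragments per library, and its interval from -0.22 to 0.36 was the widest among genes that passed in neither direction. Pseudogenes named after FDPS, CYP51A1, HSD17B7, SCD and FADS2 reached at most 0.547 FPKM in a library. How reads shared with such copies were assigned is not given in the sources used here, and copies under other names were not searched.

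**Figure D3:**
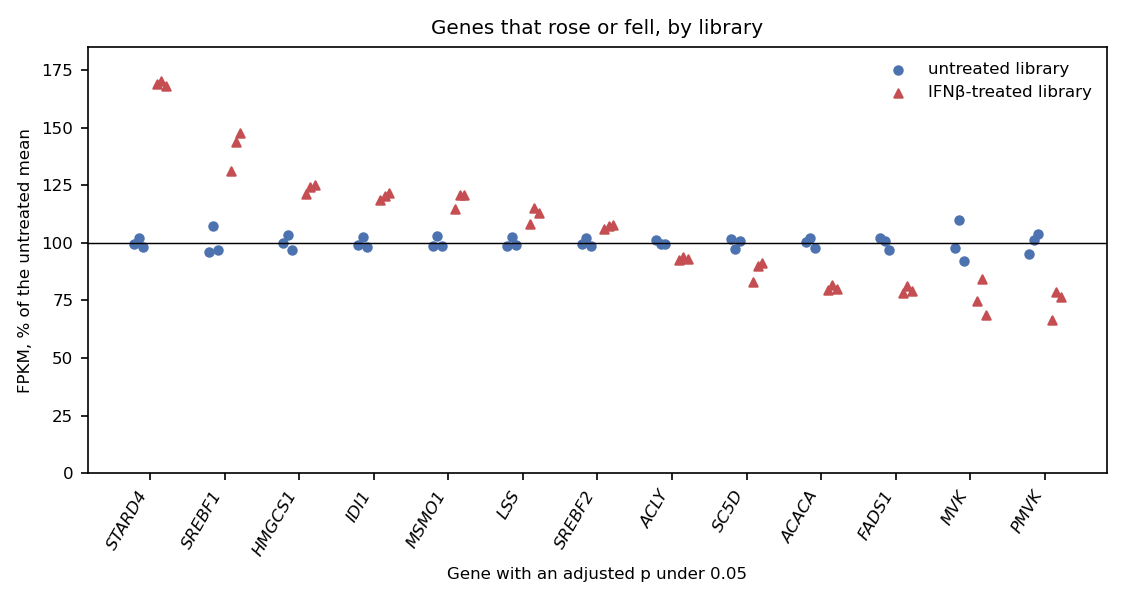
FPKM of the 13 genes that rose or fell, as a percentage of the mean of the untreated libraries, with circles for untreated and triangles for IFNβ-treated libraries and genes ordered by change. No gene has overlapping groups, and STARD4 and SREBF1 lie highest while MVK and PMVK lie lowest.

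Among the 5 regulators, the mRNAs of both SREBP genes rose and those of their partners did not pass the test. The 2 that passed are 40.0% of the 5, against 32.7% of all genes tested (15.2% higher and 17.5% lower). SREBF1, which encodes SREBP-1, was at 7.15, 8.01 and 7.22 FPKM without IFNβ and at 9.80, 10.7 and 11.03 FPKM with it. Every treated library was above every untreated one, and the fold change was 1.41 (log2 0.49 ± 0.06 SE, limma adjusted p = 0.0016). SREBF2, which encodes SREBP-2, was the more abundant at 46.4, 47.5 and 46.0 FPKM untreated and 49.3, 50.1 and 50.3 FPKM treated. Its groups were apart by a small amount, and it rose by 7.08% (log2 0.10 ± 0.02 SE, limma adjusted p = 0.0099). The call for SREBF2 was lost when the variance prior had no trend (limma adjusted p = 0.087). SREBF1 shares 556 exon bases with RAI1 on the other strand, whose difference missed the threshold (limma adjusted p = 0.32).

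The ratio of SREBF1 to SREBF2 within a library was 0.154, 0.169 and 0.157 in untreated cells and 0.199, 0.214 and 0.219 in treated cells. All 3 treated ratios were higher, and the mean log2 ratio differed by 0.39 (two-sided exact permutation test over libraries, p = 0.10, the smallest that 3 against 3 allows, 3 pairs of genes tested). INSIG1, which retains SCAP in the endoplasmic reticulum and is itself a known SREBP target, was at 42.7, 44.3 and 44.3 FPKM untreated and 40.8, 44.6 and 45.0 FPKM treated. The treated values lay on both sides of the untreated ones (log2 interval -0.11 to 0.09). INSIG2, the second retention protein, averaged 7.35 and 6.93 FPKM (interval -0.23 to 0.06), and the log2 ratio of INSIG1 to INSIG2 differed by 0.07 (exact permutation p = 0.50). SCAP itself averaged 19.4 ± 0.314 and 19.4 ± 0.260 FPKM (SD, n = 3; interval -0.05 to 0.06).

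In fatty acid synthesis, 0 of 7 genes rose and 3 fell, against 15.2% and 17.5% of all genes tested. ACACA, acetyl-CoA carboxylase 1, which makes malonyl-CoA, was at 13.4, 13.6 and 13.0 FPKM in untreated and 10.7, 10.9 and 10.7 FPKM in treated libraries. The groups were well apart, with a fall of 19.6% (log2 -0.31 ± 0.03 SE, limma adjusted p = 0.00028). ACLY, ATP citrate lyase, which supplies cytosolic acetyl-CoA, was at 106.1, 104.7 and 104.3 FPKM without IFNβ and 97.0, 98.5 and 97.8 FPKM with it. The gap was small and exceeded the spread, with a fall of 6.89% (log2 -0.10 ± 0.02 SE, limma adjusted p = 0.0034), and the call was lost when the variance prior had no trend (limma adjusted p = 0.065).

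FADS1, the delta-5 desaturase of polyunsaturated fatty acids, was at 26.0, 25.7 and 24.7 FPKM in untreated and 19.9, 20.7 and 20.1 FPKM in treated libraries. It fell by 20.4% (log2 -0.33 ± 0.03 SE, limma adjusted p = 0.00028) with no overlap. FADS2, the delta-6 desaturase encoded next to it on chromosome 11, was at 18.7, 18.5 and 17.5 FPKM untreated and 17.6, 19.0 and 18.5 FPKM treated. These ranges overlapped (interval -0.08 to 0.10). The ratio of FADS1 to FADS2 was 1.39, 1.38 and 1.41 in untreated and 1.13, 1.09 and 1.09 in treated libraries, a log2 difference of -0.34 (two-sided exact permutation p = 0.10, the smallest possible). The 2 genes share 490 exon bases on opposite strands, so some fragments may count for either.

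**Figure D4:**
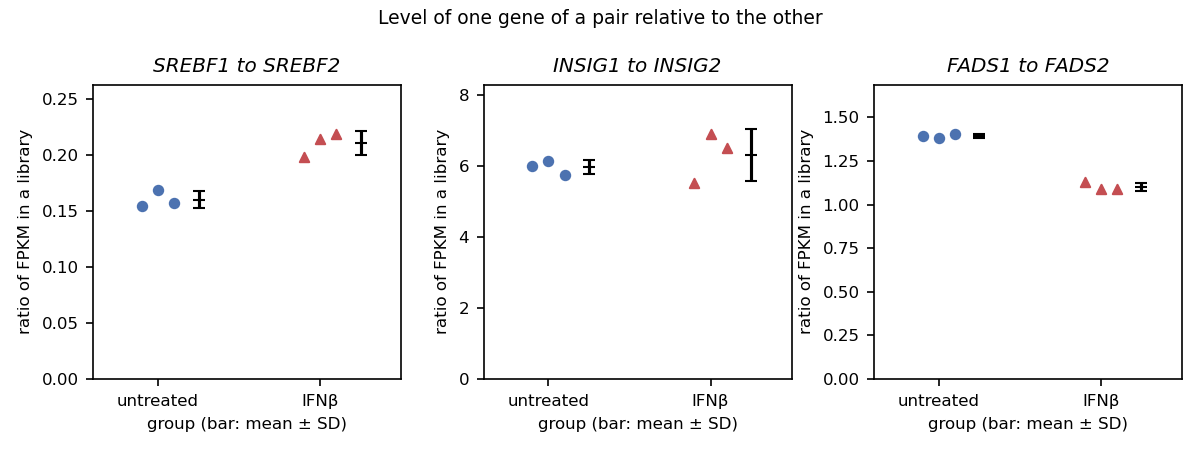
Ratio of FPKM within a library for SREBF1 to SREBF2, INSIG1 to INSIG2 and FADS1 to FADS2 in untreated (circles) and IFNβ-treated (triangles) libraries, with the mean ± SD beside the points and axes from 0. The first ratio is higher in all 3 treated libraries, the last is lower in all 3, and the INSIG ratios overlap.

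Of the remaining enzymes of the fatty acid route, FASN and SCD were among the most abundant members and ELOVL6 was not. None of them passed the test. FASN, fatty acid synthase, averaged 110.4 ± 2.35 FPKM untreated and 110.3 ± 1.91 FPKM treated (SD, n = 3), with a log2 interval from -0.06 to 0.05. SCD, the delta-9 desaturase that makes oleate, had the highest level of the 31 genes at 170.2, 183 and 170.8 FPKM untreated and 169.5, 184 and 184 FPKM treated (interval -0.07 to 0.14). The libraries of each group spanned nearly the same range. ELOVL6, which elongates palmitate to stearate, averaged 9.42 and 10.2 FPKM (interval -0.01 to 0.22), and it passed without IFNβ replicate 1 (log2 0.15, limma adjusted p = 0.035).

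For the 18 members that passed in neither direction, log2 fold changes ran from -0.14 to 0.11. In 16 of them the 95% interval lay inside 0.25 on both sides of 0, the others being TM7SF2 and HSD17B7. The order of levels by FPKM, which is per exon length, began with SCD, FASN and ACLY in untreated cells and ended with MVK, HSD17B7, CYP51A1 and TM7SF2.

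The members' libraries differed in small common ways. Untreated replicate 2 was the highest of its group for 17 of 31 members and untreated replicate 3 the lowest for 17. IFNβ replicate 1 was the lowest of its group for 23 members and IFNβ replicate 2 the highest for 17. The median deviation of a library from its group was at most 0.03 on the log2 scale, and without IFNβ replicate 1 the counts were 8 members higher and 5 lower.

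Beyond the 31 members, 5 further lists of lipid genes held 78 genes, of which 68 were tested. Of these 14 rose and 14 fell, 41.2% in all, against 32.7% of all genes tested. In the list of other isoprenoid and sterol enzymes, 7 of 13 fell and 2 rose, against 17.5% and 15.2% of all genes tested, with a median log2 fold change of -0.18. The largest falls were in NUS1 and LBR. NUS1, a subunit of the enzyme that makes dolichol, fell from 32.1 to 22.0 FPKM (log2 -0.54, limma adjusted p = 1.8e-05). DHDDS, the other subunit of that enzyme, rose from 4.28 to 4.96 FPKM (log2 0.21, limma adjusted p = 0.017). LBR, a sterol C14-reductase of the nuclear envelope, fell from 34.3 to 27.1 FPKM (log2 -0.34, limma adjusted p = 3.5e-05). Those that fell also held PDSS1, PDSS2 and COQ2 of ubiquinone synthesis, and ICMT, which acts on prenylated proteins. Of the protein prenyltransferase subunits listed, FNTA rose (log2 0.21, limma adjusted p = 0.021). FNTB passed in neither direction (log2 -0.0067, limma adjusted p = 0.98). Apart from NUS1 and LBR, the genes of this list were named after their values were seen.

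Genes that process SREBP or turn over INSIG passed in 4 of 13 cases, 2 in each direction, which is 30.8% against 32.7% of all genes tested. The largest changes were falls in SPRING1, which supports activation of the site-1 protease, from 9.15 to 6.45 FPKM (log2 -0.50, limma adjusted p = 0.00029), and in ERLIN2, an endoplasmic reticulum protein that takes part in sterol-regulated degradation, from 13.5 to 10.1 FPKM (log2 -0.41, limma adjusted p = 0.00011). Of 14 tested genes among 17 other lipogenic genes, 2 rose and 3 fell, 35.7% against the same 32.7%. GPAM, the mitochondrial acyltransferase that starts glycerolipid synthesis, fell from 2.84 to 2.02 FPKM (log2 -0.47, limma adjusted p = 0.0016), and ACSL1, an acyl-CoA synthetase, fell from 4.29 to 3.46 FPKM (log2 -0.30, limma adjusted p = 0.0019).

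The 14 tested of 19 genes for sterol sensing, efflux, transport and oxysterols held 5 that rose and 1 that fell, against 15.2% and 17.5% of all genes tested. LIPA, the lysosomal acid lipase that frees cholesterol from its esters, was at 14.4, 14.7 and 14.3 FPKM without IFNβ and 29.6, 31.6 and 31.8 FPKM with it. The treated libraries lay far above the untreated ones (log2 1.10, limma adjusted p = 2.9e-06), the only gene of the 5 lists with an absolute log2 fold change of 1. As annotated, LIPA spans the interferon-stimulated genes IFIT1, IFIT2 and IFIT3 on the other strand of chromosome 10, and its exons share 65 of 4910 bases with IFIT2 and 0 with IFIT1 or IFIT3. IFIT2 rose from 0.598 to 116 FPKM, and the part of fragments from these genes in the value of LIPA was not tested. MYLIP, a ubiquitin ligase that is a known target of the liver X receptors, rose from 1.57 to 2.86 FPKM (log2 0.82, limma adjusted p = 0.00073). CH25H, which makes 25-hydroxycholesterol and is known as an interferon-stimulated gene in macrophages, had 0, 0 and 4 fragments in untreated and 2, 1 and 0 in treated libraries, too few to test.

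In fatty acid oxidation and storage, 3 of 14 tested genes rose and 1 fell, of 16 listed, 28.6% against 32.7% of all genes tested. MGLL, monoglyceride lipase, rose from 2.03 to 3.51 FPKM (log2 0.76, limma adjusted p = 9.1e-05), and ACADVL, the very long-chain acyl-CoA dehydrogenase, rose from 38.5 to 51.8 FPKM (log2 0.43, limma adjusted p = 3.2e-05). Among the proliferation genes the largest falls were in MCM6, a part of the replicative helicase (log2 -0.54), and CCNB1, cyclin B1 (log2 -0.40). No difference between these lists and the 31 members was tested.

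**Figure D5:**
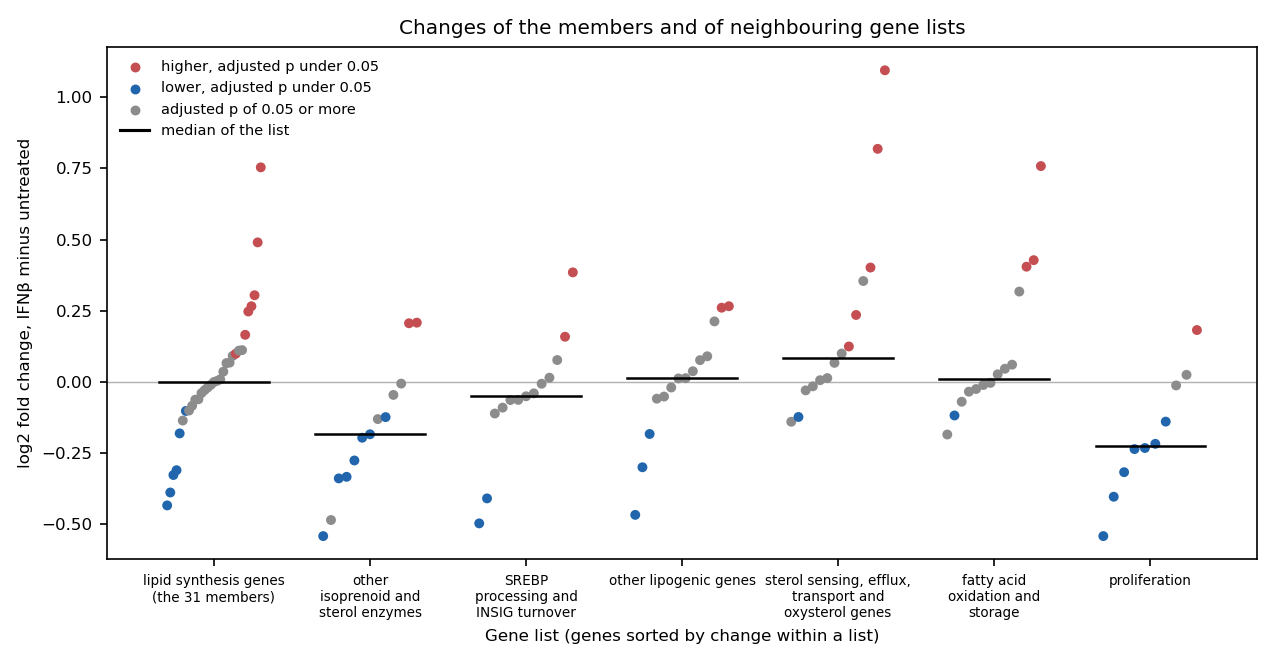
Log2 fold change (IFNβ minus untreated) of each tested gene in the 31 lipid synthesis genes, in 5 further lists of lipid genes and in the proliferation list, sorted within a list, with colours for adjusted p and a bar at the median. The members centre on 0, and LIPA is the highest point at 1.10.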

How the data were processed

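RNA of 6 HT1080 libraries was read as paired ends of 150 bases on an Illumina NovaSeq. The values deposited by the authors are FPKM per Ensembl gene and library, with no pooling. The submitters' processing notes name fastp, HISAT2, StringTie and the build GRCh38, and the annotation and the strand setting are not given in the sources used here. Coordinates and exon overlaps came from GENCODE 29 (GRCh38), in which 4436 IDs had no entry. Symbols were found for 62639 of 62710 IDs.

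Fragments were recovered as whole numbers within 0.02 for 100% of 35303 genes above 0, at 22848104 to 32915500 per library. Genes with a mean of at least 0.1 FPKM (20716) were tested by limma 3.58.1 in R 4.3.3, on log2(FPKM + 0.1) with a trended prior and no covariate. The p-values were adjusted by Benjamini-Hochberg over all genes tested, and fold changes on this scale understate those of low genes. Ratios of gene pairs were compared by a two-sided exact permutation test. Scripts were tested on simulated data. Samples were grouped by title.

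The members and lists were chosen with earlier results of these data known. Every member is named. From each further list, those past adjusted p under 0.05 were named if their log2 change reached 1 in size or if they were among the 2 largest. The interferon-stimulated genes IFIT1, ISG15, MX1 and OAS1 rose by 6.39 to 8.67 on the log2 scale. Some listed genes are not reported here by name. Alternatives varied the pseudocount, filter, scaling, prior, block, tool and libraries.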

Additional observations from a re-analysis of the deposited data

How the results depend on the processing

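Each count, each member and each gene named by the rule was refitted in 16 other ways with limma: other pseudocounts, filters and scalings, no variance trend, voom on recovered fragments, the replicate numbers as a block, and each library left out. No call reversed, though the sign of TM7SF2, INSIG1, SCAP, FASN and FADS2, which did not pass, changed between fits, and 9 of the 13 members that passed kept their call in all 16. MVK lost its call in 4 fits, SC5D in 5, and SREBF2 and ACLY in 1. SQLE, EBP, DHCR7 and ELOVL6 passed in 1 to 3 fits. Members numbered 6 to 8 higher and 4 to 8 lower, with 7 and 7 by voom and 7 and 4 at adjusted p under 0.01. A log2 fold change of at least 1 in size left 0 members higher and 0 lower, and one of 0.5 left 1 and 0. The 14 higher and 14 lower genes of the 5 further lists became 1 and 0 with a log2 fold change of 1, and 3 and 1 with 0.5. With libraries left out, members numbered 7 to 8 higher and 4 to 6 lower. The median over all genes moved to -0.06 with quantile normalization.

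With the replicate block, 7 members were higher and 6 lower, and 6069 genes passed in all against 6778 without it. Deviations of same-numbered libraries correlated at 0.05, -0.02 and 0.12, and 3 of 6 libraries correlated best with their own number, so the libraries were taken to share only a number. The smallest member rise that passed was 0.10 on the log2 scale, and TM7SF2, with 107 to 145 fragments per library, had the least depth.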
